A study of Mus musculus with 9 samples.

Results

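The 10 genes described here encode the enzymes that build UDP-N-acetylglucosamine (UDP-GlcNAc) through the hexosamine pathway and those that place this sugar on proteins or take it off: Gfpt1, Gfpt2, Gnpnat1, Pgm3, Uap1, Uap1l1, Nagk, Ogt, Oga and Eogt. They were taken by gene symbol from the 55450 genes listed, each symbol matched 1 gene, and all 10 passed the filter on low values, as did 12441 genes in all. RNA was sequenced from primary cultures of mouse articular chondrocytes, the cells of joint cartilage, in 3 groups of 3 libraries. Vehicle cells received PBS for 24 h and then DMSO, bleomycin cells received bleomycin at 50 µg/mL for 24 h and then DMSO, and the third group received the same bleomycin and then ST045849 at 20 µM. The second phase lasted 5 days with fresh medium every 48 h. Cells of every group had been digested with hyaluronidase (4 U/mL, 4 h), which cuts hyaluronan, a polymer that itself contains N-acetylglucosamine, and were grown with 10% serum at 3% oxygen. Bleomycin breaks DNA and is used to bring cells into senescence. ST045849 is a compound that blocks O-GlcNAc transferase (OGT), the product of Ogt. The inhibitor was given only after bleomycin, so its action in untreated cells was not analysed here. The sources used here give no strain, sex or age of the mice and do not say if the libraries of a group came from separate animals or cultures, so p-values measure the spread between the libraries as deposited.

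In the hexosamine pathway, fructose phosphate from glycolysis and the amide group of glutamine are joined to glucosamine phosphate by the amidotransferases GFPT1 and GFPT2, the step that limits the rate. GNPNAT1 then adds an acetyl group, PGM3 moves the phosphate, and UAP1 attaches the nucleotide to give UDP-GlcNAc, while NAGK returns free N-acetylglucosamine to the pathway. OGT transfers the sugar to serine and threonine residues of nuclear and cytoplasmic proteins and OGA removes it, so a single pair of enzymes sets this modification. In cartilage, UDP-GlcNAc and the sugars made from it are also building blocks of hyaluronan and of the chains of aggrecan. RNA levels say nothing directly of enzyme activity or of the amount of O-GlcNAc on proteins, which were not analysed here.

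The values are FPKM, fragment counts scaled to exon length and library size, so that levels can be compared between genes per length. Depth as read from the steps between low values was 0.8755 to 1.004 times that of vehicle library 1. The FPKM values of a library summed to 483953 and 468012 in bleomycin plus ST045849 libraries 2 and 3. In the other libraries the sum was 340303 to 406644. Chondrocyte markers were high in every library: all 8 chosen (Col2a1, Acan, Sox9, Col9a1, Col11a1, Hapln1, Comp and Matn3) passed the filter, and their summed level was 23660 to 33070 FPKM in vehicle, 17590 to 24990 in bleomycin and 13920 to 20670 in bleomycin plus ST045849 libraries. Col2a1 alone made up most of that sum, at 19960 ± 3891, 15380 ± 3045 and 12820 ± 2906 FPKM in these groups. The sum of 8 fibroblast or synovial markers was 1755 to 2423, 2699 to 3788 and 1550 to 2918 FPKM. That of 10 macrophage markers was 3.05 to 5.75, 10.9 to 12.6 and 11.9 to 18.0 FPKM, with the macrophage genes C1qb, C1qc and Tyrobp at 0 in all 9 libraries. With bleomycin against vehicle 2 of the 8 fibroblast markers rose (Thy1 and Cd34), as did the 3 filtered-in macrophage markers Cd14, Cd68 and Lyz2. Of all genes 4.2% rose. The same markers were called higher with both agents against vehicle, where 8.11% of all genes rose and 1.74% fell. In that comparison 3 chondrocyte markers fell (Acan, Matn3 and Col11a1). Of 5 hypertrophic or osteogenic markers, Bglap rose in both comparisons from a low level (0.137 ± 0.238 FPKM in vehicle), and Col10a1 fell with both agents. Bglap passed the filter only through libraries given bleomycin. The filter thus favoured its rise, and its calls are descriptions only. The part of these markers in the results below was not tested. Libraries also differed in how their values followed gene length. The slope of the log2 value per doubling of exon length, against the mean of all libraries, was -0.07, 0.10 and 0.08 in vehicle libraries 1, 2 and 3, and 0.10, 0.04 and 0.09 in bleomycin libraries. In bleomycin plus ST045849 libraries 1, 2 and 3 it was 0.02, -0.21 and -0.14, so that libraries 2 and 3 of that group held relatively less of long transcripts. As these are bulk samples, fewer cells of a type and less RNA per cell cannot be told apart in anything below.

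Across the 10 genes, changes were few and differed by gene. Gfpt2 fell after bleomycin, and with both agents Gfpt2 and Ogt fell and Uap1l1 rose against vehicle cells. A gene was called changed at an adjusted p under 0.05 in limma, adjusted over all 12441 genes. Against vehicle, bleomycin alone changed 1 of the 10 genes, a fall, where 4.88% of all genes changed, 4.2% up and 0.675% down. For ST045849 against bleomycin 0 of 10 passed, beside 0.0% of all genes (0 of 12441). At an unadjusted p under 0.05 were 2 of the 10, Ogt and Uap1l1, and 2804 of all. Between cells given both agents and vehicle cells, 3 of 10 changed, 1 up and 2 down, against 9.85% of all genes (8.11% up and 1.74% down). These calls differed in firmness. Under 19 other settings, that of Ogt was lost in 14, that of Uap1l1 in 10 and that of Gfpt2 in 4. The bleomycin call of Gfpt2 was also lost in 4 of 19. The median log2 change of the 10 genes was -0.16, -0.02 and -0.06 in these 3 comparisons, beside 0.10, 0.06 and 0.19 for all tested genes. The 3 comparisons share libraries, so they are not independent of each other. Log2 changes are of FPKM + 1, a scale on which low levels seem to change less than they do, and stand with the standard error from limma (n = 3 per group).

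**Figure D1:**
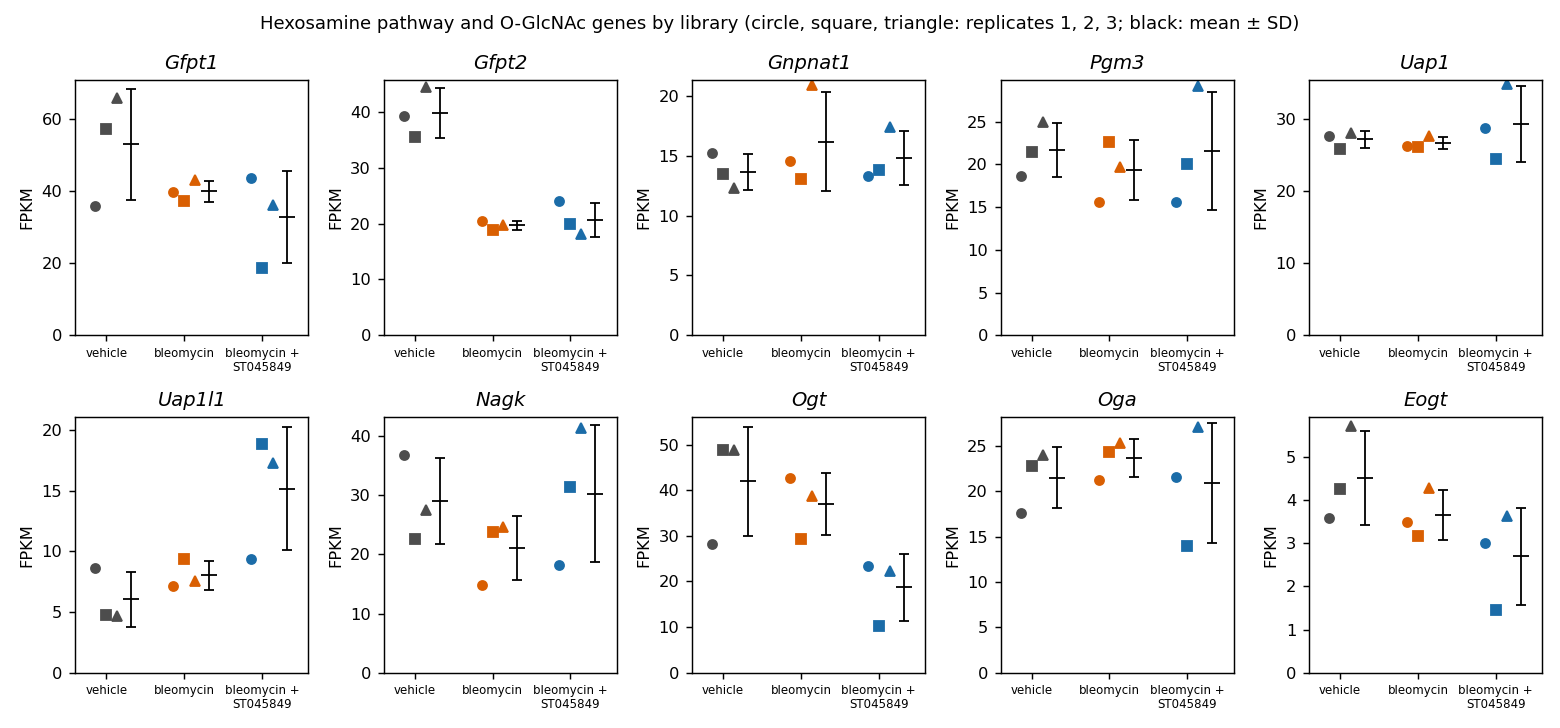
FPKM (vertical axes, from 0) of each of the 10 genes in the 9 libraries by treatment group (horizontal axes). Circles, squares and triangles are replicates 1, 2 and 3, and the black bar beside them is the mean ± SD. Gfpt2 lies at 35.6 to 44.5 FPKM in vehicle and at 18.1 to 24.1 FPKM in all 6 libraries given bleomycin, and Ogt is at 10.3 to 23.4 FPKM with ST045849, below the other 6 libraries.

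In vehicle cells the genes spanned about an order of magnitude in level. Gfpt1 was the highest (53.0 ± 15.5 FPKM, mean ± SD), followed by Ogt (41.9 ± 11.9) and Gfpt2 (39.8 ± 4.48). These 3 lay between the 88.7th and the 91.8th percentile of all tested genes, and their vehicle libraries overlapped, so their order is not settled by 3 libraries. Nagk (29.0 ± 7.23), Uap1 (27.1 ± 1.22), Pgm3 (21.7 ± 3.13) and Oga (21.5 ± 3.38) formed a middle group. Nagk overlapped with Uap1, Pgm3 and Oga, and Pgm3 with Oga, whereas every vehicle library had more Uap1 than the highest value of Pgm3. At up to 36.9 FPKM in vehicle, Nagk also overlapped with Gfpt1, Gfpt2 and Ogt (lowest values 35.8, 35.6 and 28.15). Its place below them is thus not settled. Gnpnat1 (13.7 ± 1.48), Uap1l1 (6.05 ± 2.26) and Eogt (4.52 ± 1.09) were lowest. Gnpnat1 lay below every library of the middle group and above every library of Uap1l1, while Uap1l1 and Eogt overlapped. Eogt, at the 35.5th percentile, was still detected in every library.

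Gfpt2, which encodes the second form of the amidotransferase that opens the pathway, fell with bleomycin. It stood at 39.4, 35.6 and 44.5 FPKM in vehicle libraries 1, 2 and 3, at 20.4, 18.9 and 19.8 FPKM in bleomycin libraries and at 24.1, 19.9 and 18.1 FPKM in libraries with both agents. The lowest vehicle library was thus above the highest of the 6 libraries given bleomycin, and the groups with and without ST045849 overlapped. With bleomycin against vehicle the log2 change was -0.97 ± 0.18 (95% interval -1.38 to -0.57, limma adjusted p = 0.0142), at the 0.6th percentile of all changes. Groups that do not overlap were found in 28.0% of all genes in this comparison, and 6.53% had the bleomycin group below. With both agents against vehicle the change was -0.91 ± 0.18 (adjusted p = 0.0135). ST045849 added 0.06 ± 0.18 to the level in bleomycin cells (95% interval -0.34 to 0.46, adjusted p = 0.85). The bleomycin call was lost when vehicle library 3 or any bleomycin library was left out (adjusted p from 0.0546 to 0.081). That of both agents was lost without vehicle library 3 (0.0745) and in the fits of only these 2 groups (0.0527 to 0.155).

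Gfpt1, the more widely expressed form of the same enzyme, showed a wider spread between libraries. It stood at 35.8, 57.4 and 65.9 FPKM in vehicle, 39.9, 37.2 and 43.0 FPKM in bleomycin and 43.7, 18.8 and 36.1 FPKM in bleomycin plus ST045849 libraries. Vehicle library 1 lay among the treated libraries and ST045849 library 2 below all others. The changes were -0.35 ± 0.31 with bleomycin (95% interval -1.05 to 0.34, limma adjusted p = 0.656), -0.36 ± 0.31 with ST045849 against bleomycin (-1.05 to 0.34, 0.469) and -0.71 ± 0.31 with both against vehicle (-1.40 to -0.02, 0.152). Gfpt1 has the longest exon sequence of the 10 genes (10072 bases), and after removal of each library's length trend its change with ST045849 against bleomycin was -0.01. Summed over Gfpt1 and Gfpt2, the level was 75.2, 92.9 and 110.3 FPKM in vehicle, 60.3, 56.1 and 62.8 FPKM in bleomycin and 67.8, 38.7 and 54.2 FPKM in libraries with both agents. All 3 vehicle libraries were above all 6 others, as they were for Gfpt2 alone, while Gfpt1 overlapped. Of all genes, 6.53% lay apart and lower with bleomycin against vehicle, and 6.66% with both agents against vehicle. The sum is given without a test. Gfpt2 made up 52.4, 38.3 and 40.3% of that sum in vehicle libraries and 33.9, 33.7 and 31.5% with bleomycin, and 35.5, 51.5 and 33.4% with both agents. Whether Gfpt2 and Gfpt1 changed by different amounts was not tested.

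The sequences before the starts of the amidotransferase genes are shown for the fall of Gfpt2, with the Gfpt1 sequence for contrast. RefSeq (GRCm38.p6) gave a start for 7 of the 10 genes, all but Gnpnat1, Uap1l1 and Eogt. The 250 bases before the Gfpt2 start lie at chr11:49793905-49794154 and those of Gfpt1 at chr6:87042596-87042845, both on the plus strand. Capitals mark matches on either strand to CCAAT or to the GC box GGGCGG, the only searched letters found in them.
Gfpt2: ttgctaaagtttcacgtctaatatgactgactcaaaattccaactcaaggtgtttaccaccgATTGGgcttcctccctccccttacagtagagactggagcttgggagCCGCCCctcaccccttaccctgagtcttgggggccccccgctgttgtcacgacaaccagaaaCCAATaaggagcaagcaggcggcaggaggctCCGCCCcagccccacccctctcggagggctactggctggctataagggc
Gfpt1: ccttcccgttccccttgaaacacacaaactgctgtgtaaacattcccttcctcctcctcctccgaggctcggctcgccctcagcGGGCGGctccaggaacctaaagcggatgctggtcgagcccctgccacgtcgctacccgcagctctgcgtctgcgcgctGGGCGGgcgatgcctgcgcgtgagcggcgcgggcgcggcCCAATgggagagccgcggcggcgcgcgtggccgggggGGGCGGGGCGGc
The Gfpt2 sequence held 2 CCAAT matches and 2 GC boxes with a G + C share of 57.6%. That of Gfpt1 held 1 and 4, of which the 2 nearest the start overlap, with 72.0%. Of 32536 RefSeq windows of this length, 33.8% held CCAAT and 33.0% the GC box. The median G + C share was 52.4%. The letters TGACG (the core of a cAMP response element, in 17.9% of windows), TGATGNAAN (the C/EBP-ATF element, 3.4%), CACGTG (the E-box, 6.0%) and TATAAA (12.3%) were not in either window.

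The 3 genes of the middle steps did not pass in any comparison. Uap1, which encodes the pyrophosphorylase that completes UDP-GlcNAc, was the steadiest: 27.6, 25.8 and 28.1 FPKM in vehicle, 26.2, 26.1 and 27.6 FPKM in bleomycin and 28.7, 24.4 and 34.9 FPKM in bleomycin plus ST045849 libraries. Its changes were -0.02 ± 0.18, 0.12 ± 0.18 and 0.09 ± 0.18 (limma adjusted p from 0.692 to 0.976), and the 95% interval of the bleomycin change was -0.43 to 0.38. Pgm3, the phosphoacetylglucosamine mutase gene, ranged from 15.5 to 29.2 FPKM over all libraries, both extremes belonging to the group with both agents. Its changes were -0.16 ± 0.25, 0.12 ± 0.25 and -0.04 ± 0.25 (adjusted p from 0.77 to 0.92). Gnpnat1, the acetyltransferase gene, ranged from 12.3 to 20.9 FPKM, with the highest value in bleomycin library 3, and changed by 0.21 ± 0.21, -0.10 ± 0.21 and 0.11 ± 0.21 (adjusted p from 0.72 to 0.779). Its level is uncertain, since 81.9% of its exon sequence (3878 bases) lies within Styx on the opposite strand and no source used here says if strand was used in counting. Styx itself was listed at 0.203 to 1.77 FPKM. Pgm3 shares 28.3% of its exon sequence with Dop1a on the opposite strand, which was at 6.94 ± 1.64, 9.70 ± 1.57 and 5.47 ± 0.762 FPKM in the 3 groups.

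Uap1l1, whose product resembles UAP1, was the gene that rose. Its level was 8.65, 4.78 and 4.71 FPKM in vehicle, 7.16, 9.41 and 7.53 FPKM in bleomycin and 9.38, 18.9 and 17.3 FPKM in bleomycin plus ST045849 libraries. All libraries with both agents were above all vehicle libraries, whereas ST045849 library 1 lay within the bleomycin range. In that comparison 27.7% of all genes had groups apart, 21.0% with the treated group higher and 6.66% with it lower, the direction of Gfpt2 and Ogt. The log2 change with both agents against vehicle was 1.19 ± 0.29 (95% interval 0.56 to 1.82, limma adjusted p = 0.0282), split into 0.40 ± 0.29 for bleomycin (adjusted p = 0.564) and 0.79 ± 0.29 for ST045849 after it (adjusted p = 0.203). With both agents against vehicle, removing the length trend gave 0.97 (adjusted p = 0.0554) and median-of-ratios scaling 0.98 (0.0545). The call was also lost without vehicle library 2 or 3 or ST045849 library 2 or 3 (0.0893 to 0.127), without the filter (0.0893) and in fits of these 2 groups alone (0.0604 to 0.173). As a share of Uap1 plus Uap1l1, Uap1l1 made up 23.9, 15.6 and 14.4% in vehicle, 21.4, 26.5 and 21.4% in bleomycin and 24.6, 43.6 and 33.1% in libraries with both agents.

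Nagk, the kinase gene of the salvage route, did not pass in any comparison. It was at 36.9, 22.6 and 27.5 FPKM in vehicle, 14.8, 23.8 and 24.6 FPKM in bleomycin and 18.3, 31.4 and 41.3 FPKM in bleomycin plus ST045849 libraries. The groups overlapped in all 3 comparisons. The changes were -0.45 ± 0.31 with bleomycin (limma adjusted p = 0.542), 0.47 ± 0.31 with ST045849 after it (0.354) and 0.01 ± 0.31 for both agents (0.979, 95% interval -0.68 to 0.71).

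**Figure D2:**
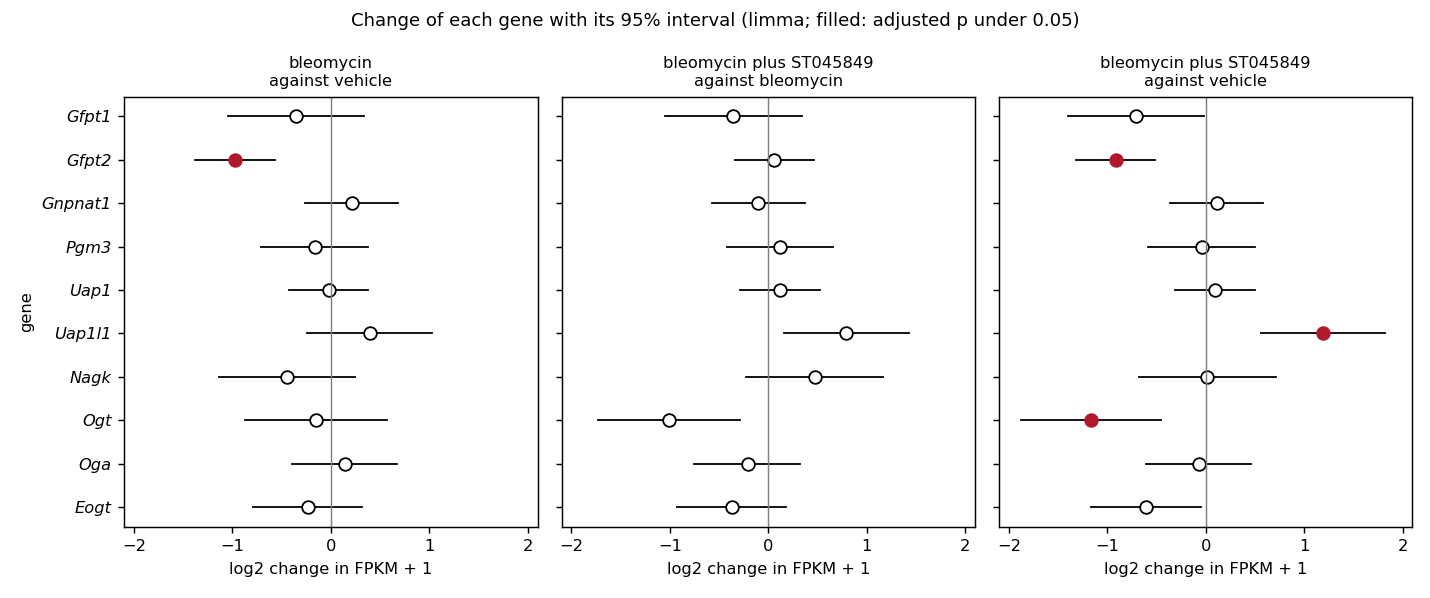
Log2 change of FPKM + 1 (horizontal axes) of each gene (vertical axis) in the 3 comparisons, with its 95% interval from limma as a line. Filled points have an adjusted p under 0.05: Gfpt2 with bleomycin (-0.97), and Gfpt2 (-0.91), Ogt (-1.16) and Uap1l1 (1.19) with both agents against vehicle. No point is filled for ST045849 against bleomycin.

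Ogt encodes the target of ST045849 and lies on the X chromosome (chrX:101640060-101684351 in GRCm38, plus strand, 8045 bases of exon sequence, none shared with another gene). A small-molecule inhibitor does not act on the gene, so the level of Ogt RNA does not check the labels. Ogt stood at 28.1, 48.9 and 48.7 FPKM in vehicle, 42.7, 29.3 and 38.8 FPKM in bleomycin and 23.4, 10.3 and 22.3 FPKM in bleomycin plus ST045849 libraries. The 3 libraries with the inhibitor were the lowest of the 9, and vehicle and bleomycin libraries overlapped. With bleomycin against vehicle Ogt changed by -0.15 ± 0.33 (95% interval -0.87 to 0.57, limma adjusted p = 0.881). With ST045849 against bleomycin the change was -1.01 ± 0.33 (-1.73 to -0.29, adjusted p = 0.203), among the lowest 1.6% of changes, in a comparison where the groups lay apart in 25.2% of all genes, 8.67% with the inhibitor group lower. With both agents against vehicle Ogt fell by 1.16 ± 0.33 on the log2 scale (adjusted p = 0.047, 1.2th percentile).

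Libraries of bleomycin and of bleomycin plus ST045849 with the same number varied together, so this comparison was also made within pairs. Ogt was lower with the inhibitor in 3 of 3 pairs, by log2 differences of -0.84, -1.43 and -0.77. A fit of these 2 groups with the pair as a block gave an adjusted p of 0.0168 for Ogt and 0.0267 for Uap1l1, higher in 3 of 3 pairs (0.35, 0.93 and 1.10). That fit called 19.3% of all genes (8.0% of all lower and 11.3% higher), so 2 of 10 is near its background. After removal of each library's length trend 1.39% of all genes passed in that paired fit, and neither gene did: Ogt was at -0.76 (adjusted p = 0.0589) and Uap1l1 at 0.72 (0.075). A block in the fit of all 9 libraries left both at 0.203. Nagk was higher in 3 of 3 pairs (0.29, 0.38 and 0.73) and Eogt lower in 3 of 3 (-0.17, -0.76 and -0.19), and neither passed in any of these fits. How many of all genes kept their direction in 3 of 3 pairs was not counted, so these pair counts are descriptions only.

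The fall of Ogt with both agents was close to the threshold. Its adjusted p was between 0.0518 and 0.168 with a mean of at least 5 FPKM, without a filter, on the TPM scale, with a block or in fits of 2 groups, and between 0.0583 and 0.178 without any 1 of vehicle libraries 2 and 3, ST045849 libraries 2 and 3 or the bleomycin libraries. It was 0.0346 with the length trend removed (log2 change -1.07), and every setting gave a value below 0. Against bleomycin, leaving out ST045849 library 1 gave -1.21 (0.042), and leaving out library 2, which held the lowest Ogt and the steepest length slope, gave -0.65 (0.506). What part the length slope has in the level of Ogt was not tested.

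**Figure D3:**
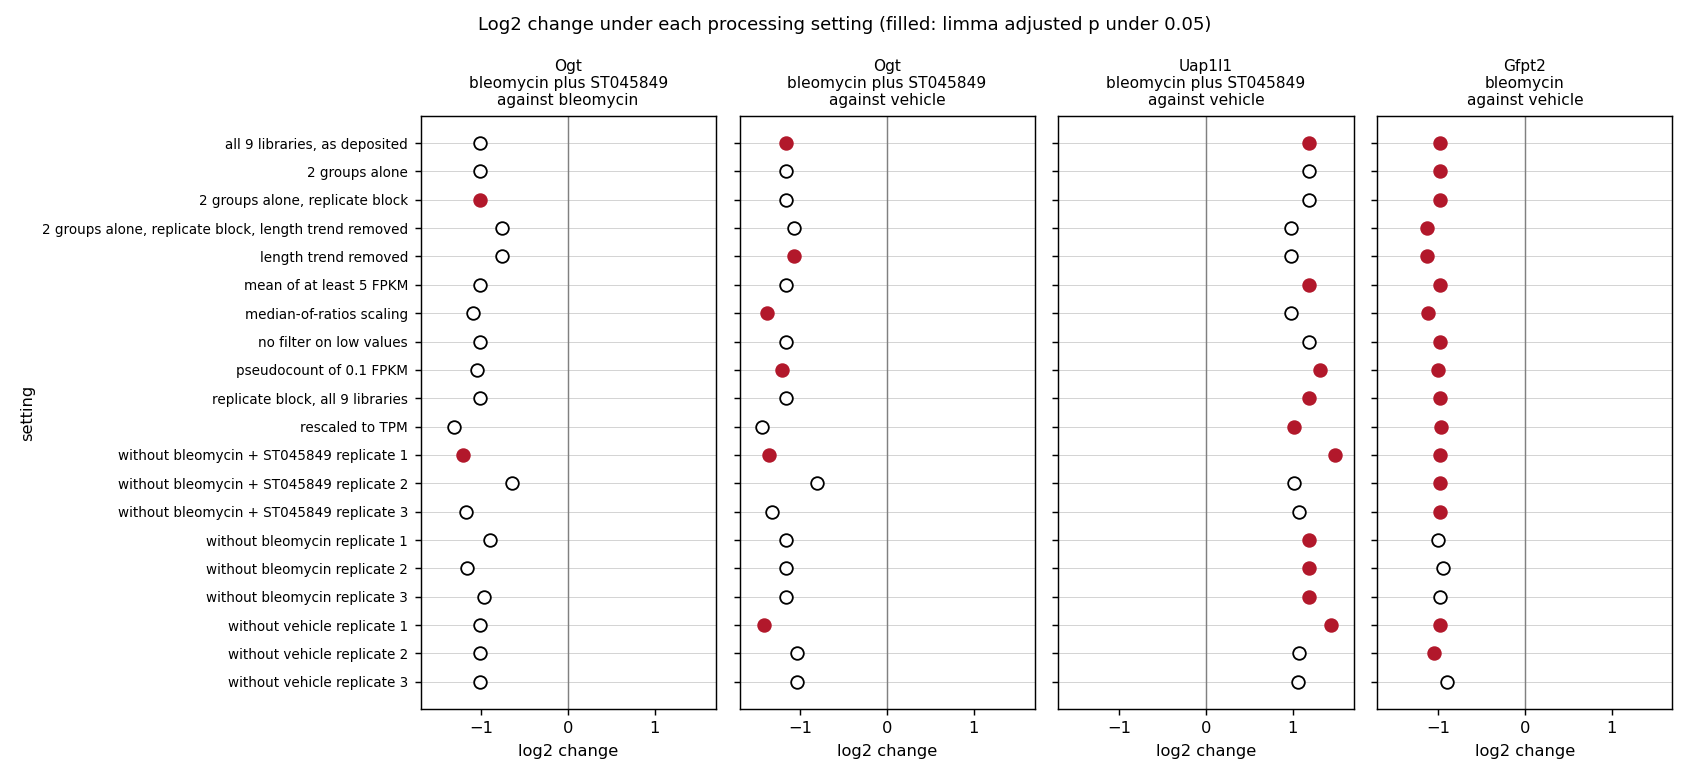
Log2 change (horizontal axes) of Ogt in 2 comparisons, of Uap1l1 with both agents against vehicle and of Gfpt2 with bleomycin against vehicle, under each processing setting and with each library left out (vertical axis). Filled points have a limma adjusted p under 0.05. Each gene keeps its direction in the 19 other settings, while Ogt against vehicle passes in 5 of them, Uap1l1 in 9 and Gfpt2 in 15.

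The region before the Ogt start is shown because Ogt was lowest in all libraries with its inhibitor. RefSeq lists 2 starts, and the 250 bases before the first are at chrX:101639801-101640050 on the plus strand. Capitals again mark the only match, 1 GC box.
Ogt: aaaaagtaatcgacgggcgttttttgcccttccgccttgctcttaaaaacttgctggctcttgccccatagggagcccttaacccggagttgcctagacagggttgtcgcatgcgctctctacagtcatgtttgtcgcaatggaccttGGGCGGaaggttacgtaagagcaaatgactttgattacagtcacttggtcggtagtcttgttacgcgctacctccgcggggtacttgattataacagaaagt
Its G + C share was 49.6%, below the median of all windows and the lowest of the 7 genes with a RefSeq start, apart from the second Ogt window (48.8%). The window before the second start also held 1 GC box, and the window of Oga held none of the searched letters.

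Oga, which encodes the enzyme that removes O-GlcNAc, did not follow Ogt. It stood at 17.7, 22.8 and 24.0 FPKM in vehicle, 21.3, 24.4 and 25.3 FPKM in bleomycin and 21.6, 14.03 and 27.2 FPKM in bleomycin plus ST045849 libraries. The last group held both the lowest and the highest value of all 9. The changes were 0.14 ± 0.24 with bleomycin (95% interval -0.40 to 0.67, limma adjusted p = 0.85), -0.21 ± 0.24 with ST045849 after it (-0.75 to 0.32, 0.581) and -0.07 ± 0.24 for both agents (-0.61 to 0.46, 0.859). Each of the 3 values changed sign when the length trend was removed, to sizes of at most 0.07. The ratio of Ogt to Oga within a library was 1.59, 2.14 and 2.03 in vehicle, 2.00, 1.20 and 1.53 in bleomycin and 1.08, 0.733 and 0.822 in bleomycin plus ST045849 libraries. All 3 ratios with the inhibitor were below the 6 others, and in libraries 2 and 3 of that group Oga was the more abundant of the pair. The exon lengths of Oga and Ogt are 8592 and 8045 bases, and what part the length slope has in the ratio was not tested. The ratio was formed after the values were known and is given without a test.

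**Figure D4:**
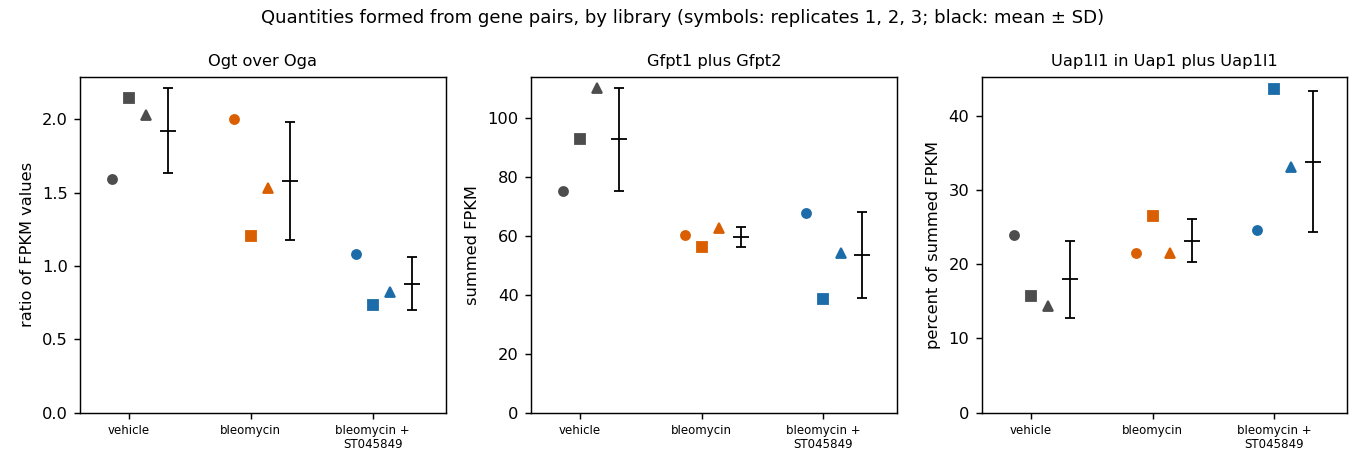
Quantities formed from pairs of genes (vertical axes, from 0) in each library by group: the ratio of Ogt to Oga, the summed FPKM of Gfpt1 and Gfpt2, and Uap1l1 as a percent of Uap1 plus Uap1l1. Symbols are replicates 1, 2 and 3 and black bars the mean ± SD. The ratio of Ogt to Oga is 0.733 to 1.08 with ST045849 and 1.20 to 2.14 in the other libraries.

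Eogt encodes a separate transferase of the endoplasmic reticulum, which puts N-acetylglucosamine on the epidermal growth factor repeats of secreted and membrane proteins such as Notch receptors. It was the least abundant of the 10, at 3.58, 4.26 and 5.72 FPKM in vehicle, 3.51, 3.18 and 4.29 FPKM in bleomycin and 3.01, 1.46 and 3.65 FPKM in bleomycin plus ST045849 libraries. Groups overlapped in every comparison. The changes were -0.23 ± 0.25, -0.37 ± 0.25 and -0.61 ± 0.25 (limma adjusted p = 0.736, 0.354 and 0.132), and the 95% interval of the last was -1.16 to -0.05.

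Other genes of the same metabolism were taken from 4 lists of textbook members. Of 12 tested genes that feed the pathway or branch from it, 1 rose with bleomycin and none fell (median 0.27). Of all genes 4.2% rose and 0.675% fell (median 0.10), so 1 of 12 is near the background. The gene that rose was Glul, glutamine synthetase, which makes the amino acid that the amidotransferases consume. Its level was 9.22, 9.73 and 9.25 FPKM in vehicle and 23.1, 18.8 and 19.2 FPKM in bleomycin libraries (1.03 ± 0.23, limma adjusted p = 0.029). The call was lost without any 1 vehicle or bleomycin library (0.0751 to 0.116) and on other scales or without the filter (0.0566 to 0.066), with log2 changes of 0.90 to 1.10. With both agents against vehicle Renbp, the gene of the epimerase that interconverts N-acetylglucosamine and N-acetylmannosamine, rose from 6.15 ± 1.80 to 13.8 ± 3.49 FPKM (1.05 ± 0.26, adjusted p = 0.0313). It was the only call among the 12 in that comparison, where 8.11% of all genes rose. Renbp no longer passed in 11 of 19 other settings, among them removal of the length trend (0.64, adjusted p = 0.0727) and leaving out vehicle or ST045849 library 2 or 3 (0.0936 to 0.142). In the inhibitor comparison with bleomycin 0 of the 12 passed, beside 0 of all 12441 genes. The most abundant of the 12, the glucose phosphate isomerase gene Gpi1, changed by 0.37 ± 0.24 (limma adjusted p = 0.338).

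A further list held 19 tested genes that carry UDP-GlcNAc into the Golgi or use it. Mgat4b, which starts a branch of N-linked sugar chains, was at 12.7 ± 2.565 FPKM in vehicle, 14.6 ± 0.713 FPKM in bleomycin and 21.9 ± 3.19 FPKM in bleomycin plus ST045849 libraries. It rose with both agents against vehicle (0.74 ± 0.20, limma adjusted p = 0.039), the only rise called in this list, where 8.11% of all genes rose. The change was 0.37 after removal of the length trend (adjusted p = 0.162), and the call was lost in 15 of 19 other settings. None of the 19 rose with bleomycin alone, where 4.2% of all genes rose. For ST045849 against bleomycin 0 of 19 passed, beside 0 of all 12441 genes. In that comparison Ext2, of heparan sulfate synthesis, changed by 0.12 ± 0.22 (limma adjusted p = 0.731). The median of the list was 0.10, -0.05 and 0.05 in the 3 comparisons, beside 0.10, 0.06 and 0.19 for all tested genes.

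None of 12 genes of proteins that bind OGT, such as Hcfc1, the Tet genes and Trak1, passed in any comparison. Of all genes 4.88% passed with bleomycin, 0.0% with ST045849 against bleomycin and 9.85% with both agents against vehicle. None of 12 is thus near the background. With ST045849 against bleomycin 11 of 12 were lower, with a median log2 change of -0.65, where 55.1% of all genes were higher. The median exon length of these genes was 8190 bases, against 4247 bases for all tested genes. With the length trend removed the median was -0.33 and 11 of 12 were lower. For all genes in that setting the median was 0.01, and 6412 of 12437 were higher. What part gene length has in these values was not tested. Hcfc1, a cofactor that OGT also cleaves, was at 11.1 ± 2.098, 11.5 ± 1.93 and 6.81 ± 3.89 FPKM in the 3 groups (-0.80 ± 0.33, limma adjusted p = 0.209). The most abundant, the histone demethylase gene Kdm1a, was the exception, at 0.14, 0.14 and 0.28 in the 3 comparisons (adjusted p from 0.328 to 0.801). Of 9 tested genes of Notch and of the sugars on its epidermal growth factor repeats, 2 rose with bleomycin from low levels. Of all genes 4.2% rose. Notch3 and Jag1 were below 1 FPKM in every vehicle library and passed the filter only through libraries given bleomycin. The filter thus favoured a rise, and these 2 calls are descriptions only. Notch3 went from 0.432 ± 0.305 to 2.34 ± 0.46 FPKM (1.23 ± 0.23, adjusted p = 0.0123) and the ligand gene Jag1 from 0.382 ± 0.0652 to 1.22 ± 0.183 FPKM (0.68 ± 0.17, adjusted p = 0.0456). The Notch3 call was lost without bleomycin library 1 or 2, vehicle library 3 or the filter (0.0531 to 0.058). That of Jag1 was lost in 11 settings, among them no filter (0.086) and each that left out a vehicle or bleomycin library (0.0972 to 0.174).

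The genes whose profiles over the 9 libraries were nearest to those of Ogt and Gfpt2 were found among 7742 genes with a mean of at least 5 FPKM. The measure was the root-mean-square difference of log2(FPKM + 1) after each gene's own mean was subtracted. Nearest to Ogt were Son, which encodes a splicing factor of nuclear speckles (0.124), the kinesin gene Kif21a (0.136) and the mitochondrial carrier gene Slc25a36 (0.141), where the spread of Ogt itself was 0.644. Son stood at 31.3, 56.1 and 59.8 FPKM in vehicle, 50.5, 38.9 and 49.4 FPKM in bleomycin and 35.2, 12.1 and 25.5 FPKM in bleomycin plus ST045849 libraries. Like Ogt it was lowest in ST045849 library 2. With ST045849 against bleomycin the 3 genes changed by -1.01, -0.97 and -0.89 (limma adjusted p = 0.203 for each). In the paired fit of 2 groups, which called 19.3% of all genes, their adjusted p was 0.0163 to 0.0199. After removal of the length trend in that fit, Son was at -0.49 (adjusted p = 0.139) and Slc25a36 at -0.57 (0.0801), both no longer called, and Kif21a at -0.82 (0.0489). Their exon sequences, of 14907, 6476 and 9594 bases, are all longer than the median of tested genes.

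Nearest to Gfpt2 were Trpv4 (0.135), Trib1 (0.153) and Slc35d1 (0.160), where the spread of Gfpt2 was 0.462. Trpv4 is a calcium channel by which chondrocytes sense load and osmolarity. It was at 85.4, 79.0 and 78.1 FPKM in vehicle, 45.6, 44.1 and 37.9 FPKM in bleomycin and 51.4, 49.8 and 39.0 FPKM in libraries with both agents. Slc35d1 carries nucleotide sugars for chondroitin sulfate into the endoplasmic reticulum, and was at 17.2, 20.1 and 20.6 FPKM in vehicle, 8.43, 8.57 and 9.24 FPKM in bleomycin and 9.24, 7.42 and 9.12 FPKM in libraries with both agents. In both, as in the kinase-like gene Trib1, every vehicle library was above the 6 others. With bleomycin against vehicle Slc35d1 changed by -1.06 (limma adjusted p = 0.00709, called in every setting), Trpv4 by -0.91 (0.021) and Trib1 by -0.75 (0.031). The calls of Trpv4 and Trib1 were lost without any 1 vehicle or bleomycin library (0.0644 to 0.141), and that of Trib1 on the TPM scale (0.0634). These genes were chosen by their likeness, so their changes are descriptions and no independent support for those of Ogt or Gfpt2.

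**Figure D5:**
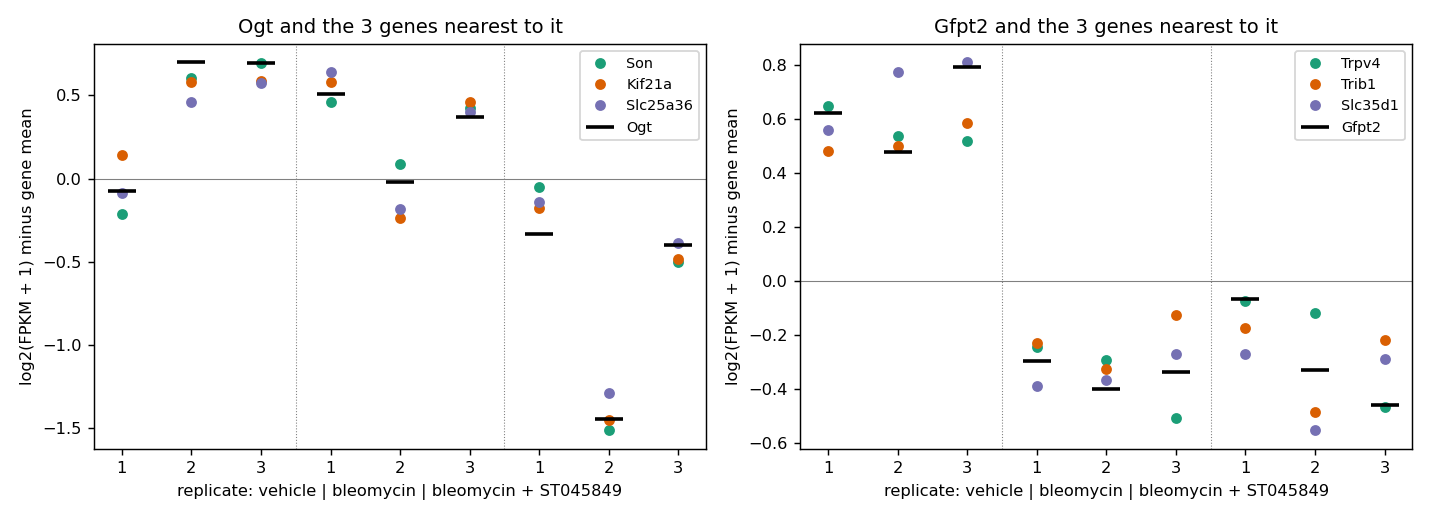
Log2(FPKM + 1) minus the gene's own mean over the 9 libraries (vertical axes) for Ogt and Gfpt2 (black bars) and the 3 genes nearest to each (coloured points), by library (horizontal axes). The Ogt profiles share a low in replicate 2 of bleomycin plus ST045849, and the Gfpt2 profiles are high in the 3 vehicle libraries and low in the other 6.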

How the data were processed

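RNA from 9 libraries of mouse chondrocytes was measured with a stranded mRNA kit, per the labels' protocols. The submitters' processing notes name Trimmomatic (a read trimmer), STAR (an aligner) and the build GRCm38. The deposited values are FPKM per gene, made by the authors; no source used here names the counting program, the annotation or the strand setting. Coordinates and exon lengths came from GENCODE vM21 (GRCm38), which held 99.53% of the identifiers. Depth was read from the steps of low FPKM values times exon length, of which 36.0 to 42.2% fell within 0.02 of a whole step (2.65 to 2.88% for the median of other step sizes), so reads were not recovered and no count test was run.

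The filter kept genes that reached 1 FPKM in 3 or more libraries. Log2(FPKM + 1) of all 9 libraries was fitted in 1 model with a mean for each group, with limma 3.58.1 in R 4.3.3 (variance trend, 6 residual and 4.95 prior degrees of freedom) and adjusted by Benjamini-Hochberg over 12441 genes. Members, lists and tests were chosen with earlier results of these data known. Other genes are named by rule: up to 2 rises and 2 falls per list and comparison by adjusted p, or else the most abundant gene of the list, and the 3 genes nearest to Ogt and Gfpt2. A gene of the list of UDP-GlcNAc transport and use that the rule names is not reported here. Hcfc1 was named for its role after its values were seen. Other settings were a pseudocount of 0.1, no filter, a filter on the mean (5 FPKM), scaling by median of ratios, TPM, a replicate block, 2 groups alone, removal of the gene length trend (loess) and leaving out each library. For list genes and list medians they were added after seeing the data.

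Pairing by replicate number was checked on each library's deviations from its group. Equal numbers of bleomycin with and without ST045849 correlated at 0.466, 0.481 and 0.5, all above the limit of 0.1, so that comparison is also given paired; the labels state no pairing. Against vehicle equal numbers gave values from -0.519 to 0.546, and unequal numbers reached 0.568, so those comparisons are not treated as paired. Lists of endothelial (0.0163 to 0.543 FPKM summed), skeletal muscle (3.21 to 6.22), erythroid (0 to 0.292) and hypertrophic or osteogenic markers (36.6 to 128.5) were summed as well.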

Additional observations from a re-analysis of the deposited data

How the results depend on the processing

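Of 567 values of the 10 genes under other settings (30 results), 491 kept direction and side of the threshold, 32 kept only the direction, 4 came to pass and 40 changed sign. The causes were not tested.

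Genes called with bleomycin (607) became 1024 in fits of 2 groups, 1047 in those with a replicate block and the length trend removed, 284 with a mean of at least 5 FPKM, and 184 (without vehicle replicate 2) to 829 with 1 library left out. With ST045849 against bleomycin (0) they became 2403 with a replicate block in 2 groups, 173 with the length trend also removed, 2 with the length trend removed or a mean of at least 5 FPKM, 1 without a filter, and 0 to 2225 with 1 library left out, the latter without ST045849 replicate 1. With both agents against vehicle (1225) they became 621 in 2 groups, 199 with the block, 241 with block and length, 782 with length, 660 with a mean of at least 5 FPKM, 651 without a filter, 710 on the TPM scale, and 286 (without vehicle replicate 2) to 3060 (without ST045849 replicate 1). Rises and falls were 523 and 84 with bleomycin, and 351 and 141 under median-of-ratios scaling. With both agents they were 1009 and 216, against 495 and 368 under that scaling and 493 and 217 on the TPM scale. The median change of all genes was 0.10, 0.06 and 0.19 as deposited, -0.02, -0.01 and 0.00 under median of ratios and 0.13, -0.19 and -0.03 on the TPM scale.

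Of the 10 genes, ST045849 against bleomycin called 2 with the replicate block in 2 groups, and 0 to 2 with 1 library left out. Bleomycin called 0 to 1 with 1 library left out, and both agents against vehicle 0 in 2 groups, 0 with the block, 0 with block and length, 1 without a filter and 0 to 3 with 1 library left out.

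Results that changed sign were at most 0.21 in size as reported, and no reversed value had an adjusted p below 0.51. For ST045849 against bleomycin, Gfpt2 was -0.03 under median of ratios and -0.22 on the TPM scale. On that scale Pgm3 was -0.15, Uap1 -0.16, Ext2 -0.16, Kdm1a -0.14 and Pofut2 -0.22, and Pofut2 was -0.02 under median of ratios. Oga was 0.07 with the length trend removed, with or without the block. Over the libraries left out in turn, the values were -0.05 to 0.15 for Gfpt2, -0.23 to 0.09 for Gnpnat1, -0.42 to 0.04 for Oga, -0.11 to 0.32 for Pgm3, -0.01 to 0.24 for Uap1, 0.0 to 0.28 for Ext2 and -0.36 to 0.47 for Pofut2. With both agents against vehicle, removal of the length trend (with or without the block), median of ratios and TPM gave -0.04, -0.11 and -0.14 for Gnpnat1, -0.14, -0.21 and -0.24 for Nagk, and -0.13, -0.13 and -0.16 for Uap1. Oga was 0.05 with the length trend removed. Leaving out 1 library gave -0.01 to 0.18 for Gnpnat1, -0.24 to 0.33 for Nagk, -0.28 to 0.18 for Oga, -0.28 to 0.16 for Pgm3 and -0.04 to 0.21 for Uap1. With bleomycin against vehicle, Oga and Kdm1a were -0.02 with the length trend removed, Kdm1a 0.0 under median of ratios, and with 1 library left out Ogt was -0.41 to 0.0 and Uap1 -0.06 to 0.0.

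The lack of separate counts and of known strand use limits the levels of Gnpnat1 and Pgm3, and 3 libraries per group limit every interval.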

Other observations

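Pofut2, which encodes a protein O-fucosyltransferase of the endoplasmic reticulum, had values on 2 levels that did not follow treatment. It was at 42.6, 107.1 and 38.5 FPKM in vehicle libraries 1, 2 and 3, at 108.7, 40.0 and 88.1 FPKM in bleomycin libraries and at 113.5, 42.9 and 90.2 FPKM in libraries with both agents. In the groups given bleomycin, libraries of the same number lay within 5 FPKM of each other. No library fell between 42.9 and 88.1 FPKM. Pofut2 was named as the most abundant gene of its list, and this pattern was seen in its values afterwards.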
